A study of Mus musculus with 4 samples.

Results

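The genes described here encode proteins of the Z-disc, the M-band, the giant proteins titin and nebulin, the ends of the thin filament and the factors that help to assemble the sarcomere. They were taken from a list of 31 symbols, and all 31 were found among the 23351 rows of the deposited gene table. Of these, 25 had a mean of at least 1 FPKM over the 4 libraries, and 6 were below it. FPKM stands for fragments per kilobase of transcript, scaled to the fragments of the library, so levels can be compared between genes of different length.

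The libraries were made from polyadenylated RNA of primary satellite cells, the muscle stem cells, which the labels also call cells derived from the extensor digitorum longus, a fast muscle of the lower leg. There were 2 Control libraries and 2 ERβ scKO libraries, the latter from mice in which the satellite cells lack estrogen receptor β. All mice were of the C57BL/6 strain and 6 to 8 weeks old, and the title of the series speaks of young females. The design text speaks of triplicates, while 2 libraries per group were analysed here. The labels used here give neither the allele, the Cre driver nor the genotype of the Control mice, and do not say whether libraries of 1 group came from separate animals. The p-values therefore measure the spread between these libraries, which may be technical.

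The sarcomere is the contractile unit of striated muscle. Thin filaments of actin are anchored at the Z-disc and thick filaments of myosin are crosslinked at the M-band, while titin spans the distance between them and nebulin runs along the thin filament. Satellite cells that leave the cell cycle switch on these genes as they turn into myocytes and myotubes, and assembly needs chaperones and scaffolds as well as the structural proteins. Factors of the MyoD family, which bind E-boxes, and of the MEF2 family are known activators of many muscle genes.

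The stretches of 250 bases before the annotated gene starts are shown for 5 members, chosen for the range of their values: Klhl41 and Ttn, with some of the largest differences between group means, Unc45b, whose groups did not overlap, Des, the most abundant and among the least variable, and Myoz2, with a lower mean in ERβ scKO. The sequences are from RefSeq on GRCm38.p6, 5′ to 3′ on the strand of the gene, and capitals mark the E-box CAGCTG and matches to the MEF2 motif. The stretch of Klhl41 is chr2:69669870-69670119 on the plus strand, with CAGCTG 127 bases before the start and a MEF2 match 63 bases before it. The stretch of Ttn is chr2:76982548-76982797 on the minus strand, with a MEF2 match 166 bases before the start. The stretch of Myoz2 is chr3:123034988-123035237 on the minus strand, with a MEF2 match at 33 bases and CAGCTG at 12 bases before the start. The RefSeq span of the whole Myoz2 gene reaches chr3:123035003, so this CAGCTG lies inside that span and the MEF2 match outside it. The span of Ttn reaches chr2:76982557, and its MEF2 match lies outside it. The stretch of Des is chr1:75360042-75360291 on the plus strand, with CAGCTG at 36 bases before the start. The stretch of Unc45b is chr11:82911003-82911252 on the plus strand and holds neither motif, though the general E-box CANNTG is found at 108 and 43 bases before the start.
Klhl41: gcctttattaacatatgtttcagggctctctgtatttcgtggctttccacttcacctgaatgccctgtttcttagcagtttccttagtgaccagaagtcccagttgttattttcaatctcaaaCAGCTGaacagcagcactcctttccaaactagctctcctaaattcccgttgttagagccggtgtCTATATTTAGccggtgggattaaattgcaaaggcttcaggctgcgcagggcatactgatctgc
Ttn: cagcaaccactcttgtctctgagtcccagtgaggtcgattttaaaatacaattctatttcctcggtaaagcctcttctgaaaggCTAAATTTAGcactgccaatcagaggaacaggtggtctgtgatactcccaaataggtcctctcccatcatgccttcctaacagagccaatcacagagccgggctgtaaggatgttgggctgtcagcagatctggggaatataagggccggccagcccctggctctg
Myoz2: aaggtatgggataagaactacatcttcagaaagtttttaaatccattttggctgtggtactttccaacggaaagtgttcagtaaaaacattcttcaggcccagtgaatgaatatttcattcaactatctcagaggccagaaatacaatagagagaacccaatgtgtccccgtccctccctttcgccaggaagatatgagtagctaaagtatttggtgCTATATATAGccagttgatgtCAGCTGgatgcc
Des: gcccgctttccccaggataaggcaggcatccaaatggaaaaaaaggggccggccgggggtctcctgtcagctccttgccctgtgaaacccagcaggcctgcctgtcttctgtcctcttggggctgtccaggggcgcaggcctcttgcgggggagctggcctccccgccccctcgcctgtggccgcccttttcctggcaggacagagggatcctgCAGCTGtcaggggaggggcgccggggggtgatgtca
Unc45b: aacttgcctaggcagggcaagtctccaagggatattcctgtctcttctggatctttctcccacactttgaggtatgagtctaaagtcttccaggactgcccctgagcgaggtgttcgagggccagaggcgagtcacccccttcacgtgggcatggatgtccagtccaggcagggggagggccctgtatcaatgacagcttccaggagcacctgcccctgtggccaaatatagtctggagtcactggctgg

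Of the 31 members, 22 had an entry, which gave 25 windows because Flnc, Csrp3 and Ldb3 have 2 starts each. Myot, Nexn, Neb, Myom2, Myoz3, Xirp1, Tcap, Lmod3 and Myoz1 had none. Motifs were searched on both strands. CAGCTG, which is a case of the general E-box CANNTG, was in 9 member windows (36.0%) and in 13% of the 32851 windows of all genes. CANNTG was in 19 member windows (76.0%) and in 66.2% of all windows. A MEF2 match was in 4 member windows (16.0%), those of Klhl41, Myom3, Myoz2 and Ttn, and in 2.92% of all windows. A CArG box, the motif of serum response factor, was in 3 member windows (12.0%) and in 1.47% of all windows. The member windows were that of Myom1 and the 2 overlapping windows of Ldb3, which hold the same box, so it was counted in each. CATTCC, read by TEAD factors, was in 24.0% of member windows against 12.6% of all windows, and TATAAA in 8.0% against 12.4%. A match describes the letters and is not evidence of binding. The 4 members with a MEF2 match had differences between groups of both signs, as given below.

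The series compares cells with and without estrogen receptor β, and for these genes the comparison asks whether sarcomere transcripts differ between ERβ scKO and Control cells. In 22 of the 25 members measured, the mean log2 level was higher in ERβ scKO, against 49.3% of all 11201 genes measured. The exceptions were Myoz2, Flnc and Des. The median log2 ratio of ERβ scKO over Control was 0.30 over the 25 members and −0.0037 over all genes. No member passed the test: limma's adjusted p, over all 11201 genes, was between 0.837 and 0.963, and 0 of 25 members were called where 0.0357% of all genes were. At an unadjusted limma p under 0.05 there was 1 member, Tcap, against 4.62% of all genes. By the authors' deposited table, p was under 0.05 with a higher ERβ scKO mean for 6 members, which were Klhl41, Lmod3, Ttn, Myom2, Nexn and Unc45b. Of all genes tested there, 1.33% were in that class. No member was in the class with p under 0.05 and a lower mean, which held 1.92% of genes, and the authors' q, all 0.998 for these members, was under 0.05 for 0% of genes. Ratios are differences of mean log2(FPKM + 1), which understates the change of genes with low levels.

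Control replicate 1 stood apart for these genes. It was the lowest of the 4 libraries in 20 of the 25 members (80%), against 33% of all genes. The Control libraries lay further apart than the group means in 22 of 25 members, against 65.3% of all genes. Relative to each gene's own mean over the 4 libraries, the median deviation of the members was −0.39 (log2) in Control replicate 1, 0.11 in Control replicate 2, 0.05 in ERβ scKO replicate 1 and 0.26 in ERβ scKO replicate 2. Control replicate 2 exceeded Control replicate 1 by a median of 0.54, in 21 of 25 members, which is more than the median difference between the groups. ERβ scKO replicate 2 exceeded Control replicate 2 by a median of 0.11, in 20 of 25 members. ERβ scKO replicate 1 was below Control replicate 2 by the median, at −0.04, and above it in 9 of 25 members. Without Control replicate 1 the members' median log2 ratio was 0.03, without Control replicate 2 it was 0.55, without ERβ scKO replicate 1 it was 0.42 and without ERβ scKO replicate 2 it was 0.19. Leaving out Control replicate 1 turned the sign of 10 of the 25 members and made the ratio of 10 more smaller by over 1.5 times. Tcap, Trim54 and Unc45b moved by less than that without either Control library. ERβ scKO replicate 2 exceeded ERβ scKO replicate 1 by a median of 0.23, in 22 of 25 members. Leaving out ERβ scKO replicate 2 made the ratio of 11 members smaller by over 1.5 times and of 5 larger by as much, and 1 changed sign. Trim54 at 0.14 and Unc45b at 0.23 were among the 11, while Tcap at 0.42 was not.

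**Figure D1:**
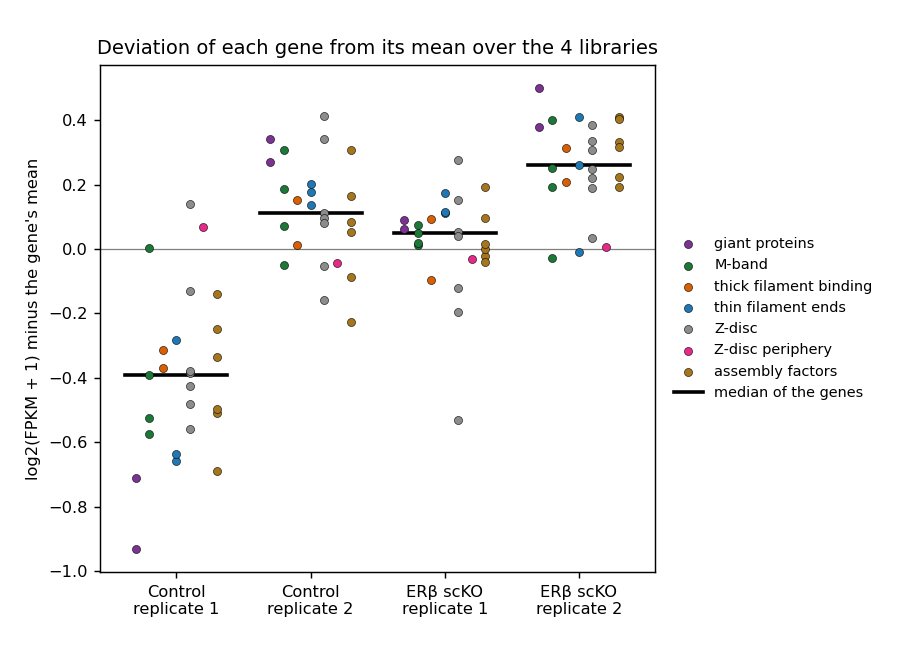
Deviation of each of 25 member genes from its own mean over the 4 libraries, in log2(FPKM + 1), with 1 point per gene and library and a bar at the median of each library. The medians are −0.39 in Control replicate 1, 0.11 in Control replicate 2, 0.05 in ERβ scKO replicate 1 and 0.26 in ERβ scKO replicate 2, so the lowest library is a Control library and the other Control library lies among the ERβ scKO libraries.

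Each ERβ scKO library exceeded each Control library in 7 of the 25 members (28%): Klhl41, Mybph, Nexn, Nrap, Tcap, Trim54 and Unc45b. Among all genes the share was 18.3%. None of the 25 had both ERβ scKO libraries below both Control libraries, which was the case for 18.3% of all genes. Among the 6 members under the filter, Myoz1 and Mybpc2 did, on very few fragments. With 2 libraries per group the smallest two-sided p of an exact permutation test is 0.333, so no single gene can reach 0.05 by that test. Under other scalings the 7 became 6 with the upper quartile, where Klhl41 and Nrap left and Obsl1 joined, and 5 with median centring, where Klhl41 and Nrap left. Tcap, Unc45b, Trim54, Nexn and Mybph kept their groups apart under all 3 scalings. The share of all genes was not computed under the other scalings, so these smaller counts do not set the members apart from other genes.

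**Figure D2:**
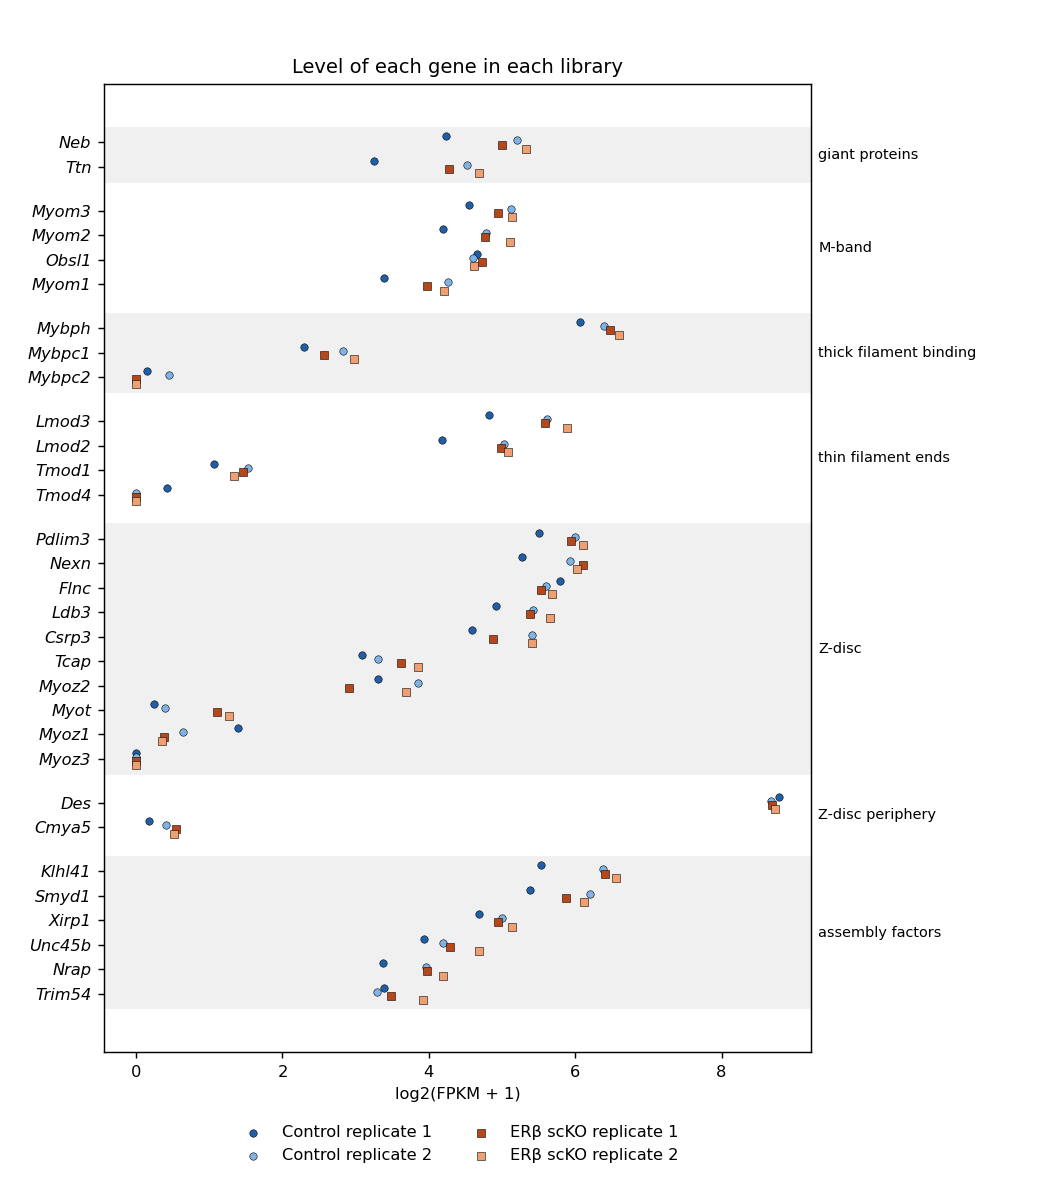
Level of each member gene in each library, as log2(FPKM + 1), with circles for the 2 Control libraries and squares for the 2 ERβ scKO libraries, and genes grouped by place in the sarcomere. Des stands above the other members in every library, at 408 to 440 FPKM, while Myoz3 is at 0 in all 4 libraries.

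The giant proteins had the widest spread among the Control libraries. Ttn encodes titin, the spring that links the Z-disc to the M-band (chr2:76703984-76982547, mm10, as are all coordinates below). It was at 8.54 FPKM in Control replicate 1, 22.1 in Control replicate 2, 18.4 in ERβ scKO replicate 1 and 24.7 in ERβ scKO replicate 2, and values below keep this order. The groups overlapped, since Control replicate 2 was above ERβ scKO replicate 1. The log2 ratio was 0.59 ± 0.41 (SE, n = 2 libraries per group), with 1.02 and 0.16 between the libraries of replicate numbers 1 and 2. In the authors' deposited table the p of Ttn was 0.0288. Neb encodes nebulin, which lies along the thin filament and bears on its length (chr2:52136647-52338798). It was at 17.8 and 36.1 FPKM in Control, against 31.1 and 39.0 FPKM in ERβ scKO, a log2 ratio of 0.44 ± 0.32, and its groups overlapped in the same order as those of Ttn. The FPKM of Ttn divided by that of Neb in the same library was 0.480 and 0.612 in Control, against 0.591 and 0.634 in ERβ scKO, so the lowest value was again that of Control replicate 1.

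At the M-band, the myomesins crosslink neighbouring thick filaments. Myom2, the myomesin of fast adult fibres (chr8:15057653-15133419), was at 17.2 and 26.5 FPKM in Control, against 26.1 and 33.6 FPKM in ERβ scKO. The groups met at the inner values, with ERβ scKO replicate 1 just under Control replicate 2. Its log2 ratio was 0.45 ± 0.23, with 0.58 and 0.33 between the libraries of replicate numbers 1 and 2, and the p in the authors' deposited table was 0.03235. Myom1, the myomesin found in all striated muscle (chr17:71019557-71126856), was at 9.42 and 18.2 FPKM in Control, against 14.7 and 17.5 FPKM in ERβ scKO. Both ERβ scKO libraries lay between the Control libraries. Myom3, the remaining myomesin (chr4:135759715-135815564) was at 22.4 and 33.9 FPKM in Control, against 29.9 and 34.0 FPKM in ERβ scKO, with overlap, and the log2 ratios of Myom1 and Myom3 were 0.27 ± 0.30 and 0.20 ± 0.21. Obsl1, an obscurin-like protein that binds titin and myomesin (chr1:75485825-75506452), was at 24.2 and 23.3 FPKM in Control, against 25.5 and 23.6 FPKM in ERβ scKO. Its log2 ratio was 0.05 ± 0.12, and 0.25 with the trend on GC content removed. The ratio of Myom2 to Myom1 was 1.83 and 1.46 in Control, against 1.78 and 1.92 in ERβ scKO, and that of Myom3 to Myom1 was 2.37 and 1.86 in Control, against 2.03 and 1.95 in ERβ scKO. Neither ratio set the groups apart.

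**Figure D3:**
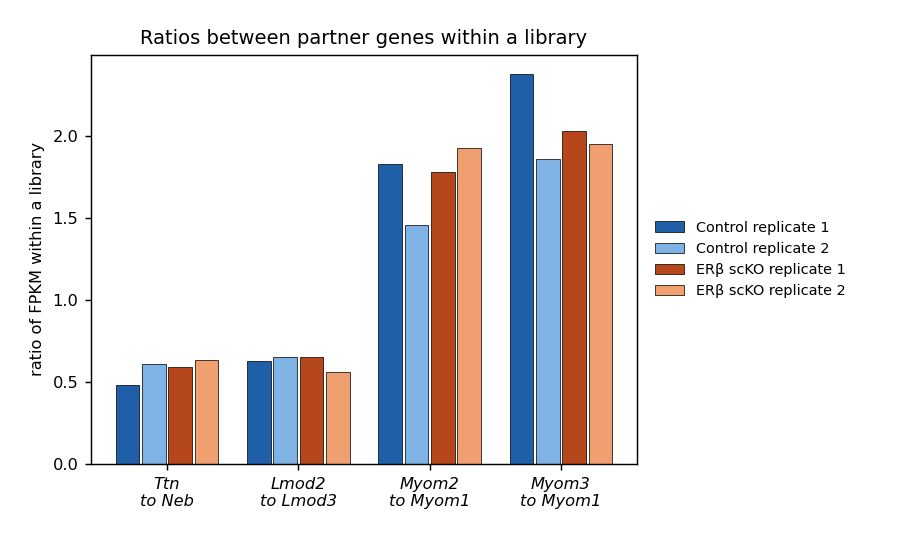
FPKM of 1 member divided by that of a related member in the same library, for Ttn to Neb, Lmod2 to Lmod3, Myom2 to Myom1 and Myom3 to Myom1, with 1 bar per library from 0. The ratio of Ttn to Neb runs from 0.480 in Control replicate 1 to 0.634 in ERβ scKO replicate 2, that of Myom2 to Myom1 from 1.46 in Control replicate 2 to 1.92 in ERβ scKO replicate 2.

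Among the proteins that bind the thick filament, Mybph, or myosin binding protein H (chr1:134193448-134235431), was the second most abundant of all members. It was at 66.3 and 83.3 FPKM in Control, against 88.2 and 95.7 FPKM in ERβ scKO. Each ERβ scKO library exceeded each Control library, with a log2 ratio of 0.30 ± 0.14. The locus in the deposited table runs 34194 bases past the RefSeq gene and overlaps Adora1, so part of its fragments could belong to that gene. Mybpc1, the slow form of myosin binding protein C (chr10:88518279-88605152), was at 3.92 and 6.07 FPKM in Control, against 4.95 and 6.90 FPKM in ERβ scKO, with overlap and a log2 ratio of 0.22 ± 0.26. Mybpc2, the fast form (chr7:44501699-44524669), was at 0.106 and 0.367 FPKM in Control, about 1 and 4 fragments, and at 0 in both ERβ scKO libraries. Counts that small leave Mybpc2 within 3 fragments of 0 in 3 of the 4 libraries.

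At the ends of the thin filament, tropomodulins cap the pointed end and leiomodins help actin to nucleate and elongate there. Lmod3 (chr6:97238528-97252780), whose loss in humans causes nemaline myopathy, was at 27.3 and 48.1 FPKM in Control, against 47.3 and 58.4 FPKM in ERβ scKO. ERβ scKO replicate 1 was just under Control replicate 2, so the groups overlapped. The log2 ratio was 0.52 ± 0.27, with 0.77 and 0.28 between the libraries of replicate numbers 1 and 2, and the p in the authors' deposited table was 0.0225. Lmod2, the leiomodin most abundant in heart (chr6:24597771-24605414), was at 17.1 and 31.5 FPKM in Control, against 30.8 and 32.8 FPKM in ERβ scKO, a log2 ratio of 0.43 ± 0.27. Here 3 of the 4 libraries lay close together and Control replicate 1 was low. The ratio of Lmod2 to Lmod3 was 0.629 and 0.655 in Control, against 0.652 and 0.561 in ERβ scKO. Tmod1 (chr4:46039222-46138475) was at 1.09 and 1.87 FPKM in Control, against 1.75 and 1.52 FPKM in ERβ scKO, on about 9 to 17 fragments. Its log2 ratio was 0.11 ± 0.27, the groups overlapped, and its locus in the table overlaps Tstd2. Tmod4, the tropomodulin of fast fibres (chr3:95124514-95129208), was at 0.342 FPKM in Control replicate 1, about 1 fragment, and at 0 in the other libraries.

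Of the 7 Z-disc members measured, 5 had a higher and 2 a lower mean in ERβ scKO, and in Tcap and Nexn (28.6%) both ERβ scKO libraries were higher, against 18.3% of all genes. Tcap encodes telethonin, which ties the ends of titin molecules together in the Z-disc (chr11:98383811-98384953). It was at 7.51 and 8.91 FPKM in Control, against 11.3 and 13.4 FPKM in ERβ scKO. The ERβ scKO libraries lay above the Control libraries, and the Control libraries lay closer together than the groups. Its log2 ratio of 0.54 ± 0.17 was 0.53 and 0.54 between the libraries of replicate numbers 1 and 2. The unadjusted limma p of Tcap was 0.0212 and the adjusted p was 0.837, while the authors' deposited table gives p = 0.13765. Its transcript is short and its values rest on about 18.2 and 24.5 fragments in the Control libraries, against 29.4 and 37.6 in the ERβ scKO libraries, so counting error is large.

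Nexn, or nexilin, an actin-binding protein of the Z-disc (chr3:152236984-152266320), was at 37.7 and 60.0 FPKM in Control, against 68.2 and 64.0 FPKM in ERβ scKO. Its groups did not overlap, though Control replicate 2 was close to ERβ scKO replicate 2. The log2 ratio was 0.47 ± 0.22, made up of 0.84 and 0.09 between the libraries of replicate numbers 1 and 2, and the p in the authors' deposited table was 0.03485. Ldb3, a PDZ and LIM domain protein that binds α-actinin and is also called ZASP or Cypher (chr14:34526699-34588681), was at 29.2 and 41.9 FPKM in Control, against 40.7 and 49.2 FPKM in ERβ scKO. Pdlim3, of the same domain family (chr8:45885485-45919546), was at 44.2 and 62.8 FPKM in Control, against 60.2 and 67.7 FPKM in ERβ scKO. In both genes Control replicate 2 was just above ERβ scKO replicate 1, and the log2 ratios were 0.35 ± 0.20 for Ldb3 and 0.27 ± 0.18 for Pdlim3.

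Csrp3, the muscle LIM protein (chr7:48830398-48848051), was at 23.1 and 41.6 FPKM in Control, against 28.3 and 41.4 FPKM in ERβ scKO. Its values followed the replicate number more than the group, and the log2 ratio was 0.14 ± 0.31. Flnc, or filamin C, an actin crosslinker that binds myotilin and other Z-disc proteins (chr6:29433153-29461888), was at 54.3 and 47.4 FPKM in Control, against 45.1 and 50.5 FPKM in ERβ scKO. Its groups overlapped, with a log2 ratio of −0.09 ± 0.13, and it was 1 of the 2 measured members with their highest value in Control replicate 1. Myot, which encodes myotilin (chr18:44334074-44355722), was below the filter, at 0.18 and 0.31 FPKM in Control, against 1.16 and 1.40 FPKM in ERβ scKO. These values stand for about 1 and 2 fragments in Control and about 7 and 9 in ERβ scKO. The libraries did not overlap. Fitted without the filter, the log2 ratio of Myot was 0.87 ± 0.16 with a limma adjusted p of 0.847.

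The calsarcins, encoded by Myoz1, Myoz2 and Myoz3, bind α-actinin and calcineurin. Myoz2, the form of slow fibres and heart (chr3:123006206-123034987), was at 8.93 and 13.5 FPKM in Control, against 6.53 and 11.9 FPKM in ERβ scKO. It had the lowest log2 ratio of the 25 members, −0.28 ± 0.31, with −0.40 and −0.16 between the libraries of replicate numbers 1 and 2, and its groups overlapped. Myoz1, the main form of fast fibres (chr14:20649102-20656540), was at 1.63 and 0.562 FPKM in Control, about 5 and 2 fragments, and at 0.301 and 0.282 FPKM in ERβ scKO, about 1 fragment each. The ERβ scKO libraries lay below the Control libraries, and 3 of the 4 values were under the level of 3 fragments, which is 0.789 to 0.913 FPKM for this gene. Myoz3, another fast form (chr18:60573717-60591716), was at 0 in all 4 libraries, which allows a level of up to 0.296 to 0.342 FPKM, the value of 3 fragments. The limits of 3 fragments cover counting error only.

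At the periphery of the Z-disc, Des encodes desmin, the intermediate filament that ties neighbouring myofibrils together (chr1:75360344-75367715). Des was by far the most abundant member, at 440.4 and 408.3 FPKM in Control, against 411.3 and 422.3 FPKM in ERβ scKO, and made up 31.5% to 43.7% of the summed FPKM of all members. Its groups overlapped, with a log2 ratio of −0.02 ± 0.09 and with Control replicate 1 as its highest library. Obsl1 lies on the same chromosome, 118110 bases past the end of Des. Without Des, the members' FPKM summed to 567 and 835 in Control and to 796 and 920 in ERβ scKO. Cmya5, or myospryn, which binds desmin (chr13:93040715-93144724), was below the filter, at 0.126 and 0.325 FPKM in Control, against 0.463 and 0.434 FPKM in ERβ scKO. Its long transcript makes these about 4, 11, 15 and 15 fragments, and the groups did not overlap.

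All 6 assembly factors had higher means in ERβ scKO, and in 4 of them (66.7%) the groups did not overlap, against 18.3% of all genes. Klhl41 and Nrap, which are 2 of these 4, overlapped under upper quartile scaling and median centring. Klhl41, a Kelch protein needed for intact sarcomeres in humans and fish (chr2:69670120-69684239), was at 45.3 and 82.6 FPKM in Control, against 84.2 and 93.0 FPKM in ERβ scKO. The groups did not overlap, but Control replicate 2 was close to ERβ scKO replicate 1 and far from Control replicate 1. Its log2 ratio was 0.53 ± 0.27, with 0.88 and 0.17 between the libraries of replicate numbers 1 and 2, and the p in the authors' deposited table was 0.0225. Unc45b, the muscle chaperone that folds myosin heads (chr11:82911253-82964850), was at 14.3 and 17.2 FPKM in Control, against 18.6 and 24.7 FPKM in ERβ scKO. The groups did not overlap, and the log2 ratio of 0.43 ± 0.18 was 0.35 and 0.50 between the libraries of replicate numbers 1 and 2. The p in the authors' deposited table was 0.04455, and the locus there runs 21444 bases past the RefSeq gene of Unc45b. Unc45bos and Slfn5os overlap that RefSeq gene, and genes lying only in the extra bases were not looked up.

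Trim54, a ubiquitin ligase that binds microtubules and is also called MuRF3 (chr5:31116612-31137626), was at 9.41 and 8.81 FPKM in Control, against 10.2 and 14.2 FPKM in ERβ scKO. The difference lay mostly in ERβ scKO replicate 2, with a log2 ratio of 0.37 ± 0.19. Nrap, a scaffold of nascent myofibrils (chr19:56287938-56390035), was at 9.41 and 14.6 FPKM in Control, against 14.7 and 17.3 FPKM in ERβ scKO. Its log2 ratio was 0.41 ± 0.23, the inner values of the groups nearly met, and its locus in the table overlaps Habp2. Smyd1, a methyltransferase needed for myofibril assembly (chr6:71213940-71262281), was at 40.9 and 72.7 FPKM in Control, against 57.6 and 68.5 FPKM in ERβ scKO. Both ERβ scKO libraries of Smyd1 lay between the Control libraries, with a log2 ratio of 0.20 ± 0.27. Xirp1, an actin-binding protein of Xin repeats (chr9:120013755-120023598), was at 24.8 and 30.9 FPKM in Control, against 29.7 and 34.1 FPKM in ERβ scKO, with overlap and a log2 ratio of 0.20 ± 0.15.

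**Figure D4:**
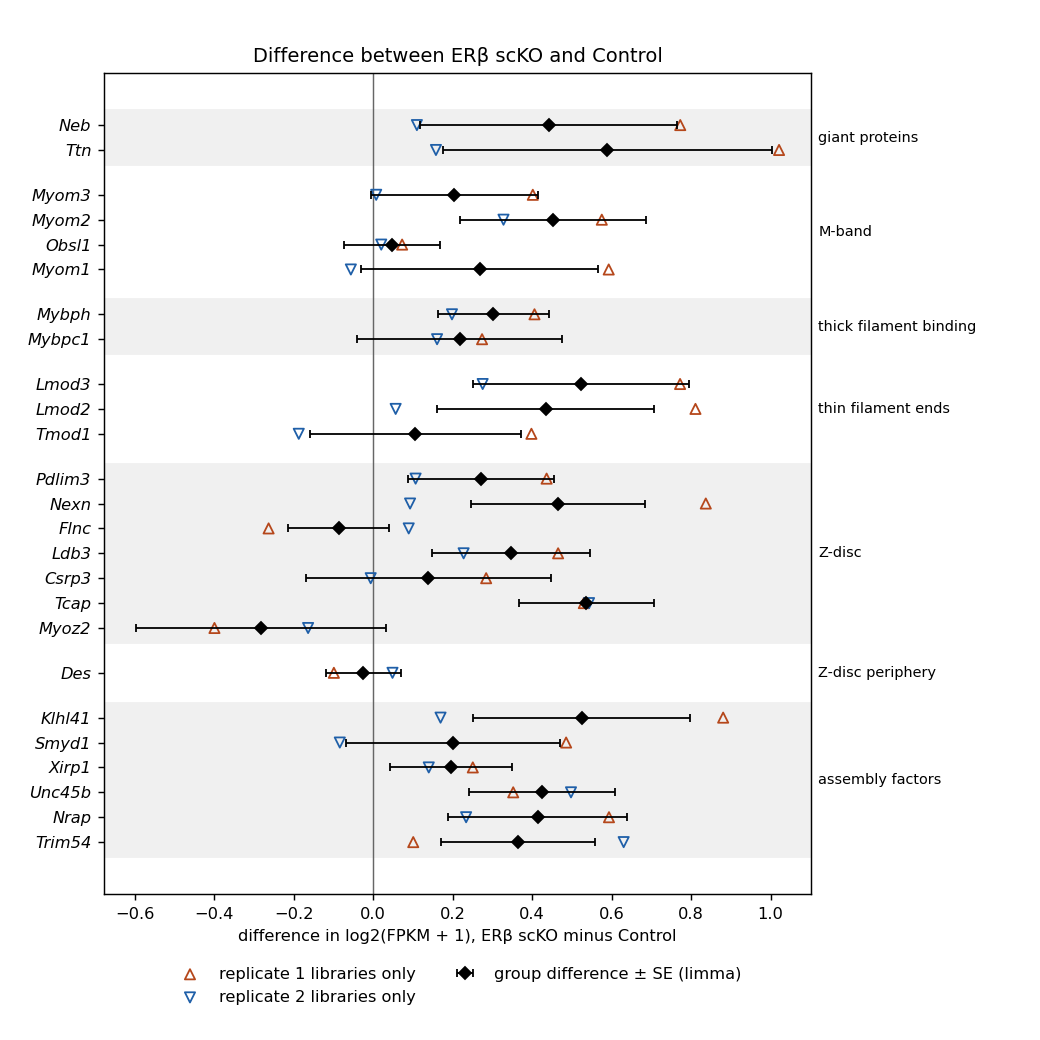
Log2 ratio of ERβ scKO over Control for the 25 members measured, with diamonds for the limma estimate and bars for its SE (n = 2 libraries per group), upward triangles for the replicate 1 libraries alone and downward triangles for the replicate 2 libraries alone. The estimates run from −0.28 for Myoz2 to 0.59 for Ttn, and for most members the difference between the replicate 1 libraries is the larger one, Tcap, Unc45b and Trim54 being among the exceptions.

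By place in the sarcomere, the median log2 ratio was 0.52 for the 2 giant proteins, 0.43 for the 3 thin filament end proteins measured, 0.39 for the 6 assembly factors, 0.27 for the 7 Z-disc proteins, 0.26 for the 2 thick filament binding proteins, 0.24 for the 4 M-band proteins and −0.02 for Des, the 1 member measured at the Z-disc periphery. Over the 25 members the median was 0.44 with the libraries of replicate number 1 alone, where 22 members were higher in ERβ scKO. It was 0.11 with those of replicate number 2 alone, where 20 were. Of all 11201 genes, 5444 were higher with replicate number 1 alone and 5698 with number 2 alone.

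By fibre type as assigned here, the summed level of the slow and heart forms was above that of the fast forms in every library. The fast form Myom2 was above Myoz2 and Mybpc1. Of the 5 members typical of fast fibres, Myom2 alone passed the filter, and Myoz1, Myoz3, Mybpc2 and Tmod4 were at or near 0. All 5 members assigned to slow fibres or heart, which are Myom3, Myoz2, Csrp3, Lmod2 and Mybpc1, passed it. Their FPKM summed to 75.5 and 127 in Control and to 101 and 127 in ERβ scKO. Myom3 made up a large part of that sum, at 22.4 to 34.0 FPKM, and its place in this group was not tested. The fast members summed to 19.3 and 27.5 FPKM in Control and to 26.4 and 33.9 FPKM in ERβ scKO, nearly all of it from Myom2. The median log2 ratio of the slow and heart members was 0.20. In all 5 the groups overlapped, as they did in Myom2, the 1 fast member measured. Among all genes, 18.3% had both ERβ scKO libraries above both Control libraries and 18.3% below, so so few members do not set either fibre type apart.

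In other genes of the sarcomere the pattern was shared in part. Of 41 further Z-disc, M-band, filament end and assembly genes, 36 passed the filter, limma called 0, and 26 had a higher and 10 a lower mean in ERβ scKO, with a median log2 ratio of 0.15. Of the 31 tested in the authors' deposited table, 2 had p under 0.05, both higher in ERβ scKO, against 1.33% of all genes tested there. These were Smpx, a small muscle protein, at 35.2 and 65.0 FPKM in Control, against 64.3 and 82.0 FPKM in ERβ scKO, and Igfn1. Igfn1, an immunoglobulin domain protein of the Z-disc, had a log2 ratio of 0.46. In both genes the groups overlapped and Control replicate 1 was the lowest library. Actn2, the α-actinin that crosslinks actin in the Z-disc and binds many of the members, was at 44.9 and 79.6 FPKM in Control, against 63.0 and 79.1 FPKM in ERβ scKO, with overlap. Of 22 contractile proteins 20 passed the filter, limma called 0, and 18 had a higher mean in ERβ scKO, with a median log2 ratio of 0.25. Among these Control replicate 1 was the lowest library in 16. Of the 20 tested in the authors' deposited table, 3 had p under 0.05 with a higher ERβ scKO mean, against 1.33% of all genes tested. They were the myosin heavy chain Myh1, the light chain Myl1 and the troponin Tnnc2, with log2 ratios of 0.52, 0.54 and 0.47. The groups overlapped in Myh1 and Myl1 but not in Tnnc2, and Control replicate 1 was the lowest library in all 3. Myh3, the embryonic myosin heavy chain, was at 252 and 425 FPKM in Control, against 357 and 459 FPKM in ERβ scKO.

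Markers of other states and cells were read beside these values. Myog, the regulator of terminal muscle differentiation, followed the members, at 494 and 621 FPKM in Control, against 623 and 660 FPKM in ERβ scKO. Pax7, the defining factor of satellite cells, was level, at 10.4 to 10.7 FPKM in all 4 libraries. Transcripts of satellite cells and of differentiating myocytes were thus present together. The 10 satellite cell markers, of which 8 passed the filter, had 3 higher and 5 lower means in ERβ scKO. Their list summed to 330 and 288 FPKM in Control and to 299 and 294 FPKM in ERβ scKO. Control replicate 1 was the highest library in 4 of the 8 and the lowest in 2. Of 10 regulators of myogenesis and fusion, 8 were matched in the table and 7 passed the filter, with 4 higher and 3 lower means in ERβ scKO, a median log2 ratio of 0.08 and no limma call. Of 8 markers of mature fibres 5 passed, 4 with a higher mean in ERβ scKO and 1, Ckm, with a lower one. Control replicate 1 was lowest in all 5, and with the libraries of replicate number 2 alone 3 were higher in ERβ scKO. The list, which includes Myh1 given above, summed to 183 and 292 FPKM in Control and to 280 and 337 FPKM in ERβ scKO. Myh2, Myh4 and Pvalb were at or near 0.

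Of 10 fibroblast markers 8 passed the filter, all 8 with a lower mean log2 level in ERβ scKO, and Control replicate 1 was the highest library in 7. For Dcn the mean FPKM was nearly the same, at 1.27 in Control and 1.28 in ERβ scKO. The list summed to 202 and 138 FPKM in Control and to 134 and 119 FPKM in ERβ scKO, and Lum and Dpt were at 0 in all libraries. Col1a1, a fibrillar collagen chain, was at 18.7 FPKM in Control replicate 1 and at 0.909 FPKM in Control replicate 2, 2.09 in ERβ scKO replicate 1 and 1.40 in ERβ scKO replicate 2. The library that was lowest for the sarcomere genes was thus the highest for most fibroblast markers. The 8 smooth muscle and pericyte markers summed to 1099 and 1000 FPKM in Control and to 1068 and 1006 FPKM in ERβ scKO, with 5 of 7 measured lower in ERβ scKO. The summed markers of endothelium, macrophages, Schwann cells and adipocytes were between 0.757 and 8.50 FPKM in every library, with Cldn5, C1qa, Lyz2, Adipoq, Cfd and Plin1 at 0. The part of these cells in the sarcomere result was not tested, and in RNA of a whole culture a smaller share of differentiating cells and less RNA per cell cannot be told apart.

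The nuclear RNAs Malat1 and Neat1, which can follow RNA quality, were each higher in the ERβ scKO libraries. Malat1 was at 63.5 and 115 FPKM in Control, against 141 and 166 FPKM in ERβ scKO, and Control replicate 1 was again the lowest library. Neat1 had a log2 ratio of 0.67, and the precursor of ribosomal RNA, Rn45s, was lower in ERβ scKO, with a log2 ratio of −1.81 and a limma adjusted p of 0.0300. Esr2, the gene of estrogen receptor β, was at 0.234 and 0.202 FPKM in Control and was listed at 0 in both ERβ scKO libraries, too low to check the labels firmly. By the spacing of low FPKM values the libraries had 2550000 and 2900000 fragments in Control, against 2750000 and 2950000 in ERβ scKO, so Control replicate 1 was also the shallowest. The transcripts of the members had a median GC content of 51.8%, against 50.04% of all genes, and a median length of 3361 bases, against 3141. The part of depth and RNA quality in the sarcomere result was not tested.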

How the data were processed

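Polyadenylated RNA of 2 Control and 2 ERβ scKO samples was made into stranded libraries, as the labels' protocols state, and the submitters' processing notes name TopHat, Cufflinks and the build mm10 without versions or an annotation. For each gene the deposited table lists the FPKM of every library and the group means. Further columns give the authors' log2 fold change, a score that is the statistic of the authors' test, and the authors' p-value and q-value, given for 9426 rows marked as tested. A second deposited sheet of 306 rows repeats part of the gene table and was not used.

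FPKM values are not counts, so limma 3.58.1 (R 4.3.3) was run with a variance trend on log2(FPKM + 1) of the 4 libraries. The fit took in the 11201 genes whose mean reached 1 FPKM, and p-values were adjusted by Benjamini-Hochberg over all of them at 0.05. The fit was tested on simulated data. Members, lists and tests were chosen with earlier results of these data known. Every member is named. Of the further sarcomere lists the genes named are those with the authors' p under 0.05 and a few fixed ones. Fragment numbers were estimated from the spacing of low FPKM values in 2102 genes with 1 transcript longer than 1500 bases. Transcript lengths and GC content came from GENCODE, matched to 92.6% of symbols. The alternatives tried were other pseudocounts, filters and scalings, no variance trend, GC correction, a replicate block and each library left out. Chosen after seeing the data was a fit, without the correction, on only the genes used for GC correction. Those genes had GC content and passed a lower limit on transcript length.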

Additional observations from a re-analysis of the deposited data

How the results depend on the processing

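The libraries held about 2550000 to 2950000 fragments, so short or weakly expressed members such as Tcap, Tmod1 and Myot rest on few fragments. Limma called 0 of the members under every setting that allowed a test, with a lowest adjusted p of 0.167, and 1 had an unadjusted p under 0.05 with all 4 libraries. Limma's calls among all genes went from 4 to 2 without the filter and to between 7 and 11 with 1 library left out. With the GC trend removed there were 0, in a fit on the 10495 genes that had GC content and passed a lower limit on transcript length. An alternative chosen after seeing the data fitted these 10495 genes without the correction and also gave 0, so the loss came with the genes left out. The members' median log2 ratio stayed positive, between 0.03 and 0.55, when libraries were left out, and the authors' p under 0.01 and q under 0.05 each left 0 of the 6 members. The number of members with ERβ scKO above Control was 8 to 21 with 1 library left out. Fewer libraries make this easier to reach, and the share over all genes was not computed for these settings. In the libraries of replicate number 1 only it was 22 of 25, against 5444 of 11201 genes. In those of number 2 only it was 20 of 25, against 5698 of 11201 genes. The count was not run with GC correction and cannot change with pseudocount, trend or block.

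The replicate numbers are shared between groups, but the labels do not say what they mark. The deviations of same-numbered libraries from their group means had a correlation of 0.211 over 11201 genes, and with 2 pairs this does not show pairing. With a replicate block limma called 6 of 11201 genes. On the 10495 genes with GC content and enough transcript length, the block gave 1 call with the GC trend removed and 0 without that correction. No member was among these calls.

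With only the libraries of replicate number 2, 6 members changed sign: Myom1 −0.056, Tmod1 −0.19, Csrp3 −0.0060, Smyd1 −0.084, Flnc 0.090 and Des 0.049. With the GC trend removed, with or without the block, Flnc was at 0.034, Des at 0.055 and Obsl1 at 0.25. With 1 library left out, the log2 ratio ran from −0.047 to 1.23 for Ttn, −0.049 to 0.93 for Neb, −0.17 to 0.71 for Myom1, −0.084 to 0.49 for Myom3, −0.0046 to 0.098 for Obsl1, −0.044 to 0.48 for Mybpc1, −0.13 to 0.34 for Tmod1, −0.67 to 0.11 for Myoz2, −0.27 to 0.55 for Csrp3, −0.18 to 0.011 for Flnc, −0.080 to 0.030 for Des and −0.21 to 0.61 for Smyd1. Without Control replicate 1 the ratio of 10 other members kept its sign and was smaller by over 1.5 times: Klhl41 0.099, Ldb3 0.094, Lmod2 0.014, Lmod3 0.13, Mybph 0.14, Myom2 0.15, Nexn 0.14, Nrap 0.12, Pdlim3 0.023 and Xirp1 0.044. The cause was not tested. Where a group was left with 1 library, that library was assumed to vary like the others.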
